A study of Mus musculus with 6 samples.

Results

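The proteasome genes are the 46 genes whose platform symbol starts with Psma, Psmb, Psmc, Psmd, Psme or Psmf followed by a number, of 19937 genes with a probe set of their own. Of these, 44 encode subunits, assembly factors, activators or an inhibitor of the proteasome. The other 2, Psmc3ip and Psme3ip1, carry the name only because their products bind a subunit or act beside one. Each of 6 livers, taken whole from FVB/NJ embryos at embryonic day 13.5, had its RNA measured on its own Affymetrix gene array: 3 were wildtype and 3 Klf1-/- (n = 3 per group throughout). Both genotypes came from matings of mice housed as Klf1 +/-, and the livers were dissociated to single cells without sorting. Klf1 is a transcription factor of red cell precursors; the labels do not say how the allele was made.

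The proteasome is the barrel-shaped protease that degrades proteins marked with ubiquitin. Its 20S core is a stack of rings of alpha and beta subunits, the alpha rings forming the gate and the beta rings holding the cutting sites. The 19S cap recognises, unfolds and feeds in substrates, and other activators or inhibitors can take its place. Red cell precursors rely on this machinery to remove unpaired globin chains and organelle proteins as they mature, and much of the early work on ubiquitin-dependent degradation used reticulocyte lysate.

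Levels are log2 of the deposited probe set intensities, changes are knockout minus wildtype on that scale, and ± after a change is the standard error of the limma fit. A gene was called higher or lower at a Benjamini-Hochberg adjusted p under 0.05 over all 19937 genes. In a whole liver, fewer cells of a type and less RNA per cell cannot be told apart. Klf1 itself was lower in every knockout array, at 10.59, 10.58 and 10.76 in wildtype and 9.05, 9.38 and 9.12 in the knockouts. Array medians of the intensity ranged from 104.5 to 109.8. The hepatoblast markers Alb and Afp read 13.93 ± 0.10 and 13.31 ± 0.14 (SD, n = 3) in wildtype, and the red cell markers Alas2 and Slc4a1 12.70 ± 0.09 and 13.57 ± 0.12, so defining markers of the labelled tissue were present.

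Limma called none of the genes of the core particle or the cap in these livers and 3 of the 5 genes of activators and the inhibitor; the difference between these groups was not tested. Of the 46 genes 2 were called higher, Psme1 and Psmf1, 1 was called lower, Psme3, and 43 were not called. Over all genes 19.1% were called, 10.8% higher and 8.26% lower, against 6.52% of the proteasome genes. Of all calls 43.2% were lower, or 61.0% with each array centred on its 75th percentile. The groups of arrays did not overlap for 9 of the 46 proteasome genes, or 19.6%, against 37.5% of all genes. The median change was 0.05 for the 46 genes and -0.02 for all genes, turning to -0.01 and -0.09 with that centring, and the middle 50% of changes ran from -0.006 to 0.13 and from -0.16 to 0.12. The changes of the proteasome genes had an SD of 0.157, against 0.328 over all genes.

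**Figure D1:**
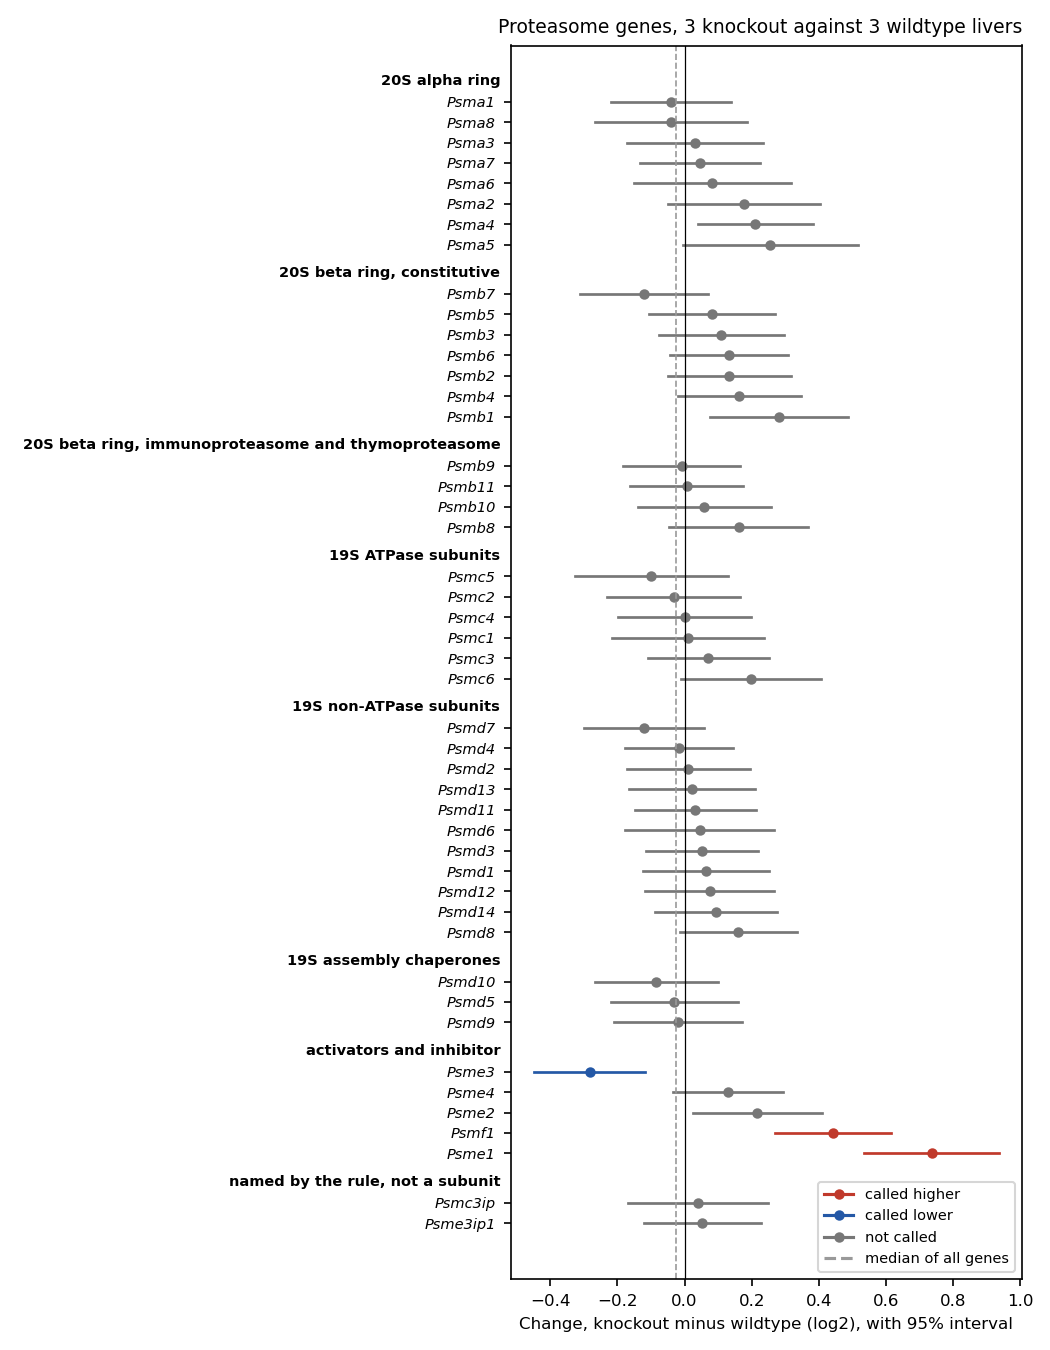
Change of each of the 46 proteasome genes by role, knockout less wildtype (log2), with its 95% limma interval (3 against 3 arrays); the dashed line is the median of all genes. Points of Psme1, Psmf1 and Psme3 are coloured as called, and the 43 grey genes lie between -0.12 and 0.28.

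The activators and the inhibitor held every called member. Psme1 encodes the alpha subunit of PA28, a ring that docks on the 20S core without ATP and is inducible by interferon gamma. Its level was 8.93, 8.99 and 8.74 in wildtype (replicates 1, 2 and 3, the order kept below) and 9.56, 9.73 and 9.58 in the knockouts. All knockout arrays lay above all wildtype arrays, and the level rose by 0.74 ± 0.09, or 1.67-fold (limma adjusted p = 0.00024). With any 1 array left out the change of Psme1 lay between 0.66 and 0.79.

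Psmf1 encodes PI31, which binds the 20S core and inhibits it in vitro. It read 10.58, 10.63 and 10.49 in wildtype and 10.95, 11.05 and 11.03 in the knockouts. The groups again did not overlap, and Psmf1 rose by 0.44 ± 0.08, or 1.36-fold (limma adjusted p = 0.00258). The rise was between 0.41 and 0.47 with any 1 array left out and 0.38 with centring on the 75th percentile, and was called in each of these fits.

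Psme3 encodes PA28 gamma, the nuclear relative of the PA28 ring, which promotes degradation of some proteins without ubiquitin. It read 12.54, 12.49 and 12.46 in wildtype and 12.16, 12.26 and 12.21 in the knockouts. Each knockout array lay below each wildtype array, and Psme3 fell by 0.28 ± 0.08, to 0.822 of the wildtype level (limma adjusted p = 0.024). The call held without wildtype replicate 3 (limma adjusted p = 0.0347) and was lost without any other single array, at adjusted p between 0.0513 and 0.0827, while the change stayed between -0.31 and -0.26.

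The other activators had smaller positive values that were not called. Psme2 encodes the beta subunit that assembles with the Psme1 product in the same ring. It read 10.09, 10.14 and 9.89 in wildtype and 10.27, 10.29 and 10.21 in the knockouts, a difference of 0.22 ± 0.09 (limma adjusted p = 0.11) with a 95% interval from 0.02 to 0.41. Within each array the log2 difference of Psme1 from Psme2 ran from -1.16 to -1.15 in wildtype and from -0.72 to -0.56 in the knockouts, with means 0.52 apart. This pair was picked after its values were seen, and the difference was not tested. A further probe set is shared by Psme2 and its copy Psme2b and cannot be assigned to either. It read 8.54, 8.47 and 8.14 in wildtype and 8.70, 8.78 and 8.49 in the knockouts, where the groups overlapped. Psme4, the large nuclear activator PA200, read 11.64, 11.60 and 11.62 in wildtype and 11.71, 11.81 and 11.74 in the knockouts, a difference of 0.13 ± 0.07 (limma adjusted p = 0.248).

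**Figure D2:**
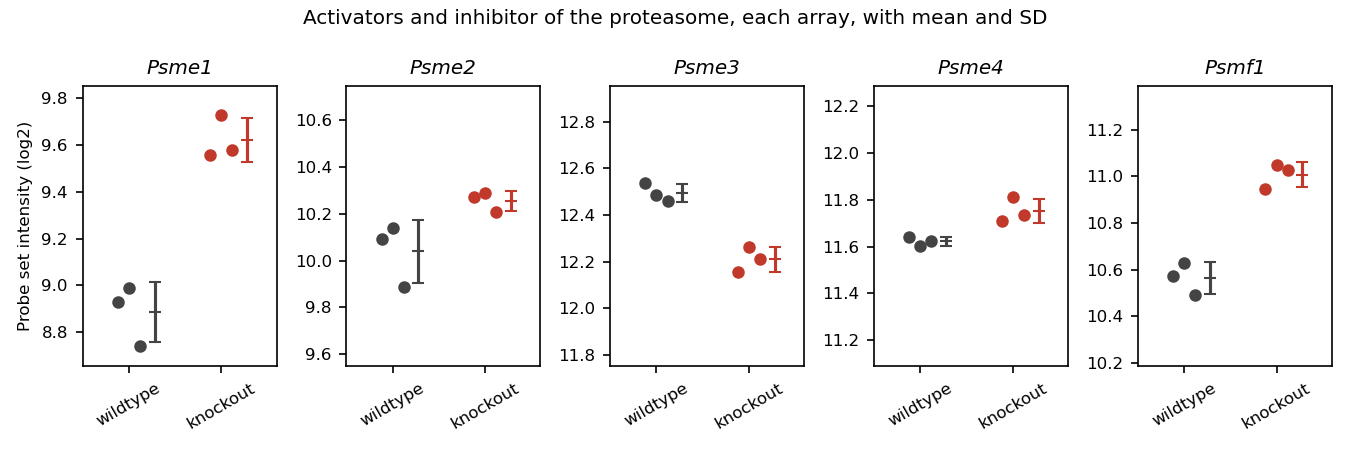
Probe set intensity on the log2 scale on each array for Psme1, Psme2, Psme3, Psme4 and Psmf1, with the mean and SD of 3 arrays per group beside the points; every panel spans the same 1.2 log2 units. The groups do not overlap in any of the 5 panels, but Psme1, Psmf1 and Psme3 alone were called.

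The promoter windows of these genes are shown because they hold every called member and the partner of Psme1. Each runs from 250 bases before to 50 after the annotated start in RefSeq on GRCm38.p6, read 5′ to 3′ on the gene's strand, with matches to the searched motifs in capitals.
Psme1, chr14:55578244-55578543, plus strand: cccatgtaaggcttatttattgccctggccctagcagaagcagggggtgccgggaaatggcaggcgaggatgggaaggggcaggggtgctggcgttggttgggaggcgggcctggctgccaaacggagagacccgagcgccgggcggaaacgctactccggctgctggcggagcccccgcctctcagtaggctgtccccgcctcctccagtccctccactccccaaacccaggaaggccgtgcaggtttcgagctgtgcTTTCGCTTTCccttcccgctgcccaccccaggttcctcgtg
Psme2, chr14:55591052-55591351, minus strand: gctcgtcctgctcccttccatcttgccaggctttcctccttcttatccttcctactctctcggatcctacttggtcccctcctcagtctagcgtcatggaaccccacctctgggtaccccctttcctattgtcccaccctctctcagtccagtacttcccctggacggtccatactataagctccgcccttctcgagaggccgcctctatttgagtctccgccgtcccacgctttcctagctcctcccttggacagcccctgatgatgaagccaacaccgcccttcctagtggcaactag
Psme3, chr11:101315963-101316262, plus strand: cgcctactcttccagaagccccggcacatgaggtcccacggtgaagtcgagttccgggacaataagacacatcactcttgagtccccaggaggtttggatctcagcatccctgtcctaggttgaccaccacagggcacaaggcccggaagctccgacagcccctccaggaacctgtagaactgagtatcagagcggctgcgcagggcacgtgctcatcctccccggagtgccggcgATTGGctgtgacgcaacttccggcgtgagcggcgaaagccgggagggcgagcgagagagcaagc
Psmf1, chr2:151741261-151741560, minus strand: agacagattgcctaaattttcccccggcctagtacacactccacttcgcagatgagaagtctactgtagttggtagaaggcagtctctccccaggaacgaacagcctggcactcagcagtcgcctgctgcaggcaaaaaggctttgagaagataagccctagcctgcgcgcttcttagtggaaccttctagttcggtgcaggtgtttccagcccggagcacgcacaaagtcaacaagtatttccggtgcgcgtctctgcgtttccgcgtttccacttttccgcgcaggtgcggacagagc
The motifs were searched on both strands: CCAAT, the antioxidant response core TGACNNNGC bound by Nfe2-like factors with small Maf partners, the Klf1-type boxes CCACACCC, CCCCACCC, CCACGCCC and CCCCGCCC, and an interferon response core, GAAA repeated after any 2 bases. The capitals in Psme1 mark the interferon response core on the opposite strand, at bases 260 to 269 of the window, and those in Psme3 mark CCAAT on the opposite strand at bases 237 to 241. The printed windows of Psme2 and Psmf1 held none of these letters in the forms searched; Psme2 has another, overlapping window, not printed, which holds a Klf1-type box. A window was found for 39 of the 46 genes, 43 windows in all as some genes have more than 1 start. The interferon core stood in 4 of these windows, those of Psme1, Psmb3, Psmd4 and Psmd9, or 9.3%, against 3.44% of all 32851 windows. A Klf1-type box stood in 14, or 32.6%, against 29.7% of all, the antioxidant core in 6, or 14.0%, against 12.4%, and CCAAT in 16, or 37.2%, against 37.4%. These are letter matches, not sites shown to be bound.

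None of the 39 genes of the 20S core, the 19S cap and the cap's assembly chaperones was called by limma, with changes from -0.12 to 0.28. At an unadjusted limma p under 0.05 there were 2, Psma4 and Psmb1, both higher, against 6636 of all 19937 genes. Of all 46 genes, 44 had a 95% interval inside a 1.5-fold change in either direction, Psme1 and Psmf1 being the exceptions. The intervals of the 43 genes not called reached from -0.33 at the lowest to 0.52 at the highest, so changes of that size are not excluded for single genes.

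The alpha ring, which gates the core and docks the caps, had 0 of 8 genes called and a median change of 0.06. Psma4 read 10.21, 10.11 and 10.12 in wildtype and 10.29, 10.42 and 10.38 in the knockouts, a difference of 0.21 ± 0.08 (limma adjusted p = 0.0844). Its groups did not overlap. Psma5 read 10.12, 9.98 and 9.69 in wildtype and 10.04, 10.33 and 10.20 in the knockouts, a difference of 0.26 ± 0.12 (limma adjusted p = 0.159) with overlapping groups. The others ran from -0.04 in Psma1 to 0.18 in Psma2. Psma8, the alpha subunit of the testis proteasome, was among the dimmest members and read 6.51, 6.49 and 6.47 in wildtype and 6.26, 6.43 and 6.67 in the knockouts.

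The constitutive beta ring, whose Psmb5, Psmb6 and Psmb7 products carry the chymotrypsin-like, caspase-like and trypsin-like sites, had 0 of 7 called and a median of 0.13. Psmb1, a structural subunit, read 10.08, 9.98 and 9.77 in wildtype and 10.20, 10.29 and 10.19 in the knockouts, a difference of 0.28 ± 0.09 (limma adjusted p = 0.0589). Psmb4, also structural, read 11.76, 11.81 and 11.63 in wildtype and 11.85, 11.98 and 11.86 in the knockouts, a difference of 0.16 ± 0.08 (limma adjusted p = 0.196). In both the groups did not overlap. Of the catalytic genes Psmb5 differed by 0.08 and Psmb6 by 0.13, while Psmb7 had the lowest value of the ring, -0.12.

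The calls closest to the threshold depended on the processing. Psma4 and Psmb1 were both called higher after quantile normalization (limma adjusted p = 0.0457 and 0.0391), with array weights, with a trended and robust variance model and with dim genes left out below the median. Without wildtype replicate 1, 5 of the 46 genes were called higher, Psme1 and Psmf1 together with Psma2, Psmb1 and the cap ATPase gene Psmc6.

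The specialised beta subunits replace catalytic ones in the immunoproteasome of blood and interferon-treated cells and in the thymus. Psmb8, which replaces Psmb5, read 6.06, 6.37 and 6.24 in wildtype and 6.30, 6.39 and 6.46 in the knockouts, a difference of 0.16 ± 0.09 (limma adjusted p = 0.255). Psmb10, which replaces Psmb7, read 7.83, 8.05 and 7.78 in wildtype and 7.95, 7.89 and 7.998 in the knockouts, a difference of 0.06 ± 0.09 (limma adjusted p = 0.678). The groups overlapped in both. Psmb9, which replaces Psmb6, differed by -0.009 and the thymus gene Psmb11 by 0.006. Psmb8, Psmb11 and Psma8 were the 3 members below the median level of all genes, where small changes are hardest to measure.

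The balance between a specialised subunit and its constitutive counterpart was compared as the log2 difference of both probe sets within each array, for 4 pairs. Psmb8 less Psmb5 differed between knockout and wildtype by 0.08, Psmb9 less Psmb6 by -0.14, Psmb10 less Psmb7 by 0.18 and Psma8 less Psma7 by -0.09. The wildtype arrays alone had an SD of 0.147, 0.126, 0.188 and 0.1002 in these differences. The exact permutation p (2-sided) was 0.6, 0.2, 0.2 and 0.6, or 0.6, 0.4, 0.4 and 0.6 adjusted over the pairs, where 3 against 3 arrays cannot go below 0.1. In Psmb8 less Psmb5 the sign turned to -0.0047 without wildtype replicate 1.

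**Figure D3:**
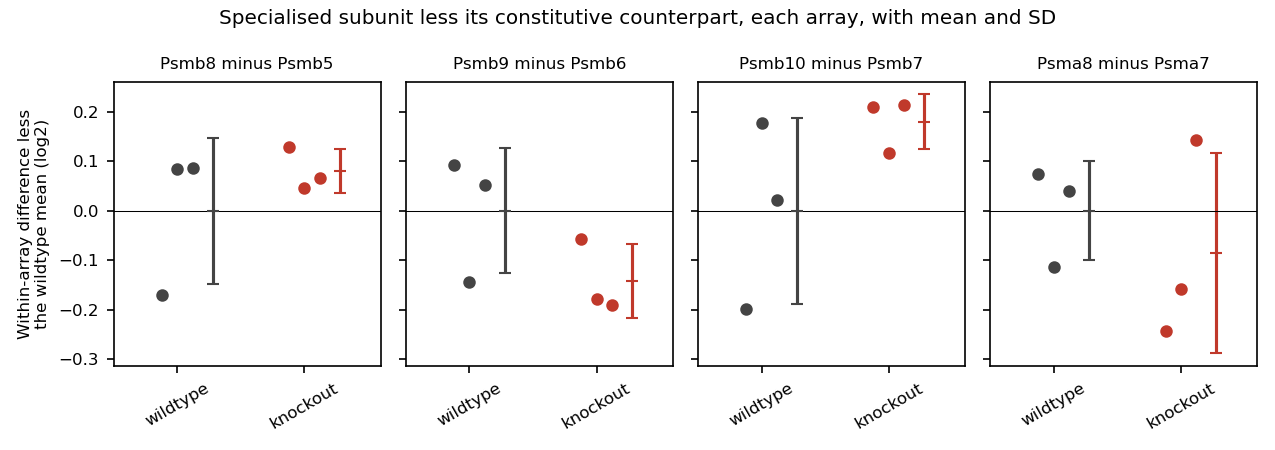
Within-array log2 difference of each specialised subunit from its constitutive counterpart, less the wildtype mean, on each array, with mean and SD of 3 arrays per group. Groups overlap in Psmb8 less Psmb5, Psmb9 less Psmb6, Psmb10 less Psmb7 and Psma8 less Psma7, with mean shifts of 0.08, -0.14, 0.18 and -0.09.

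The ATPase genes of the 19S cap, whose products form the ring that unfolds substrates, had 0 of 6 called and a median of 0.005. Psmc6 read 11.17, 10.90 and 10.87 in wildtype and 11.17, 11.23 and 11.13 in the knockouts, a difference of 0.20 ± 0.09 (limma adjusted p = 0.172). Psmc5 read 9.52, 9.26 and 9.12 in wildtype and 9.16, 9.20 and 9.24 in the knockouts, a difference of -0.10 ± 0.10 (limma adjusted p = 0.534). Wildtype replicate 1 stood above the other wildtype arrays in both, within the range of the knockouts in Psmc6 and above it in Psmc5.

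The other cap genes had 0 of 11 called and a median of 0.05. Psmd8 read 10.69, 10.74 and 10.69 in wildtype and 10.76, 10.94 and 10.90 in the knockouts, a difference of 0.16 ± 0.08 (limma adjusted p = 0.183). Psmd7 read 10.72, 10.70 and 10.53 in wildtype and 10.51, 10.57 and 10.51 in the knockouts, a difference of -0.12 ± 0.08 (limma adjusted p = 0.322). The groups were separate in Psmd8 and overlapped in Psmd7. The scaffold genes Psmd1 and Psmd2 differed by 0.06 and 0.01, the ubiquitin receptor gene Psmd4 by -0.02 and the deubiquitinase gene Psmd14 by 0.09. The chaperone genes Psmd5, Psmd9 and Psmd10, whose products help to build the base of the cap, differed by -0.03, -0.02 and -0.08 and were not called, with limma adjusted p of 0.508 or more. Psmc3ip, a partner of the meiotic recombinases, differed by 0.04, and Psme3ip1, whose product binds PA28 gamma, by 0.05.

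Most proteasome genes were lowest on the same array within each genotype. Wildtype replicate 3 was the lowest of the wildtype arrays for 39 of the 46 genes, or 84.8%, against 40.2% of all genes. Its median deviation from each gene's mean over the arrays was -0.13 in the proteasome genes and -0.004 in all genes. It was also the highest wildtype array for every measured marker of the erythroid and endothelial lists, as it was for 31.2% of all genes. The same held for the macrophage markers except Lyz2 and the hepatoblast markers except Krt8, Krt18 and Hnf4a. It was the lowest wildtype array for the megakaryocyte markers except Ppbp and Treml1, and its rank varied in other lists. The part of this in the proteasome genes was not tested. Among the knockouts, replicate 1 was the lowest for 35 of the 46, or 76.1%, against 38.1% of all genes. The median deviations of the other arrays ran from -0.02 in knockout replicate 1 to 0.07 in knockout replicate 2. Without wildtype replicate 3 the median change of the 46 genes was 0.005 in place of 0.05. For 39 of the 43 genes not called, the difference between genotypes was smaller than the range of the 3 wildtype arrays. A gene not called has a small difference for its spread, so this count was partly fixed by the choice of genes.

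**Figure D4:**
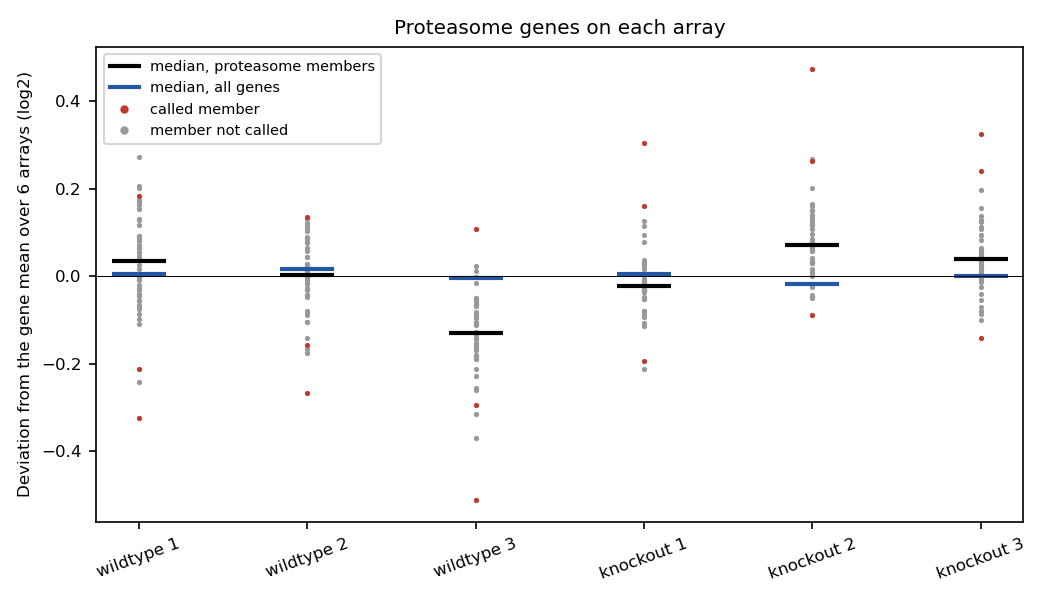
Deviation of each of the 46 proteasome genes from its own mean over 6 arrays (log2), by array; black bars are the medians of the 46 genes and blue bars those of all genes. The black bar lies at -0.13 on wildtype replicate 3 and between -0.02 and 0.07 on the other arrays, while the blue bars stay between -0.02 and 0.02.

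In the list of factors that control proteasome genes or share that family, 5 of 12 measured genes fell, 0 rose and 7 were not called, with a median of -0.09. Over all genes 8.26% were called lower and 10.8% higher. Mafk, a small Maf partner of Nfe2-like factors, read 9.41, 9.45 and 9.35 in wildtype and 8.49, 8.43 and 8.42 in the knockouts, and fell by 0.96 ± 0.07 (limma adjusted p = 8.43e-06). Nfe2, the erythroid and megakaryocyte member of the family, fell by 0.73 ± 0.08, from 10.36 ± 0.08 to 9.63 ± 0.07 (SD, n = 3; limma adjusted p = 0.000106). Foxo3, a factor of stress and protein turnover, fell by 0.60 ± 0.08, from 10.31 to 9.72 (limma adjusted p = 0.000326). All 9 measured erythroid markers were called lower as well, with a median of -0.99, and all 7 measured megakaryocyte markers higher. The part of these cell types in the falls of this list was not tested.

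Nfe2l1 encodes the factor that restores proteasome gene expression when the proteasome is inhibited. It read 9.15, 9.22 and 9.52 in wildtype and 8.89, 8.82 and 8.92 in the knockouts, and fell by 0.42 ± 0.10 (limma adjusted p = 0.0162). Its groups did not overlap. Among the wildtype arrays Nfe2l1 was highest on replicate 3, where most proteasome genes were lowest. So were Foxo3, Mafg and 31.2% of all genes, while Mafk and Nfe2 were highest on replicate 2. The call of Nfe2l1 was lost without knockout replicate 2 (limma adjusted p = 0.0615). Mafg fell by 0.27 ± 0.08 (limma adjusted p = 0.0328), a call held without wildtype replicate 1 and lost without any other single array, at adjusted p up to 0.101. The related Nfe2l2, at 0.12, and its inhibitor Keap1, at -0.03, were not called.

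**Figure D5:**
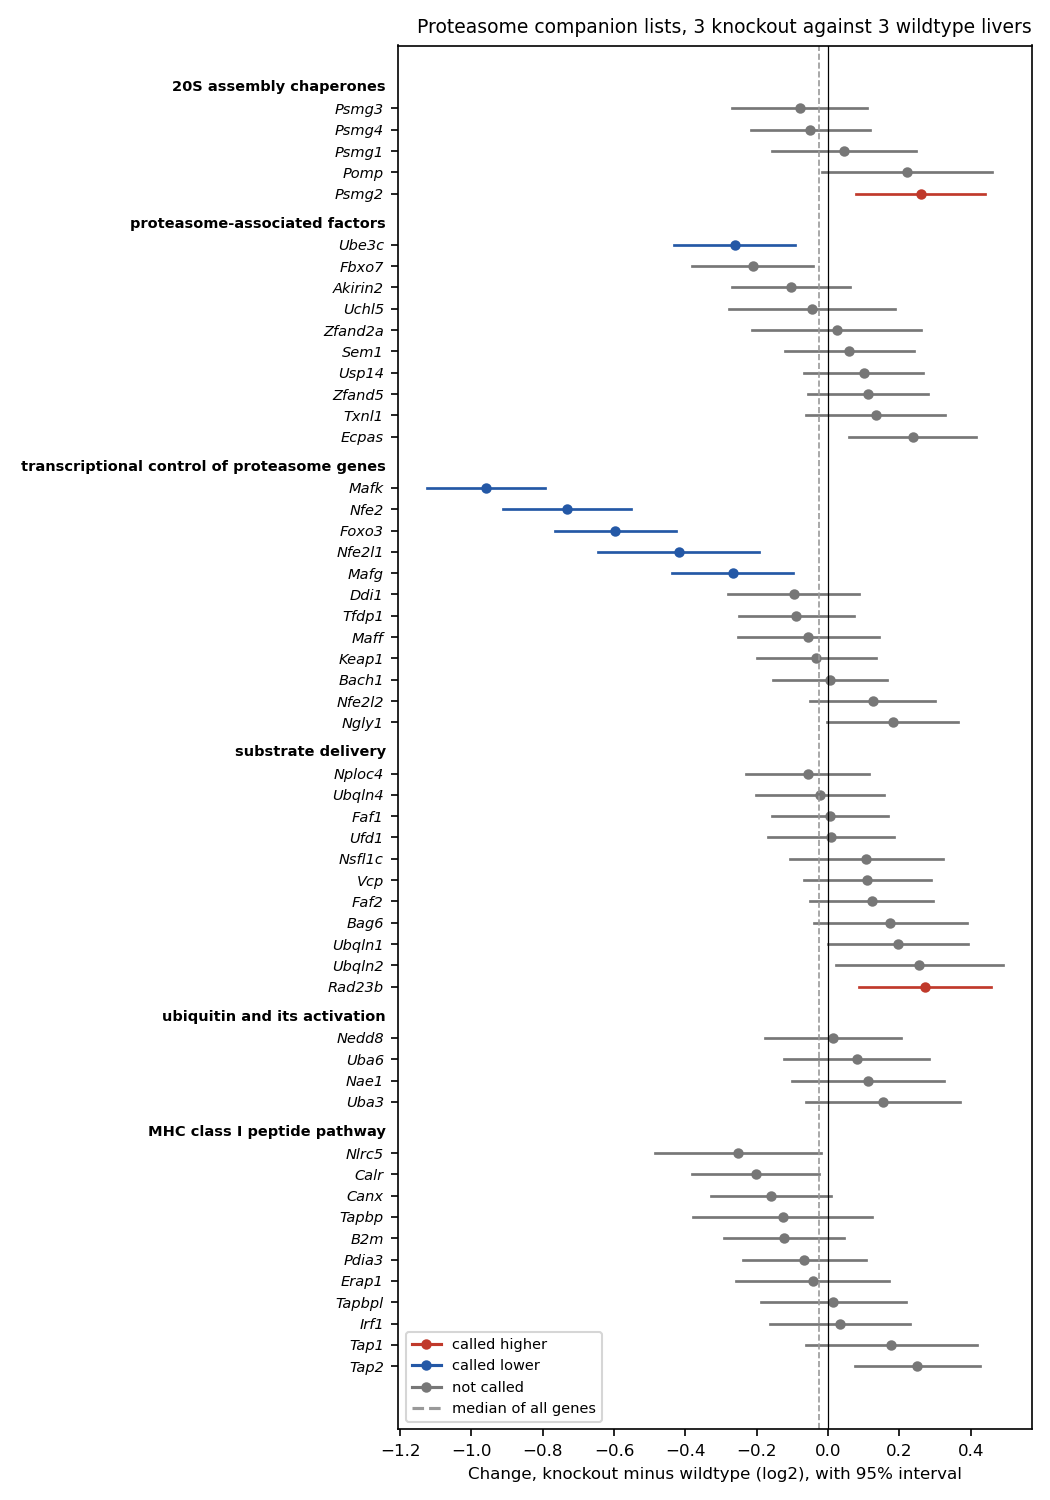
Change of each measured gene of the 6 companion lists, knockout less wildtype (log2), with its 95% limma interval (3 against 3 arrays). The 5 called genes of the list of transcriptional control lie from -0.96 to -0.27, and outside that list Psmg2, Rad23b and Ube3c alone were called.

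The other lists of the pathway are given beside all genes, of which 19.1% were called. Of 5 chaperone genes of the 20S core 1 was called, Psmg2, which rose by 0.26 ± 0.08 (limma adjusted p = 0.0492). Of 10 proteasome-associated genes 1 was called, the ubiquitin ligase gene Ube3c, which fell by 0.26 ± 0.08 (limma adjusted p = 0.0368). Of 11 genes of substrate delivery 1 was called, the shuttle gene Rad23b, which rose by 0.27 ± 0.08 (limma adjusted p = 0.0447). With 1 array left out Psmg2 and Rad23b lost the call in 5 of 6 fits and Ube3c in all 6, at adjusted p up to 0.167, 0.136 and 0.112.

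Of 10 listed genes of ubiquitin activation and the related Nedd8 pathway only 4 were measured, Uba6, Nedd8, Uba3 and Nae1. Limma called 0 of these 4, with 0 at an unadjusted p under 0.05, and the other listed genes remain unknown. Uba3 and Nae1, which together activate Nedd8, differed by 0.15 ± 0.10 and 0.11 ± 0.10. The peptides that proteasomes cut are presented by MHC class I, and of 11 measured genes of that pathway limma called 0, with 3 at an unadjusted p under 0.05. Over all 19937 genes limma gave 6636 an unadjusted p under 0.05. Tap2, a subunit of the peptide pump into the endoplasmic reticulum, differed by 0.25 ± 0.08 (limma adjusted p = 0.0503), and the chaperone gene Calr by -0.20 ± 0.08 (limma adjusted p = 0.105).

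Markers of several cell types were also called, where 10.8% of all genes were called higher and 8.26% lower. The erythroid list had 9 of 9 genes called lower, with a summed intensity of 50756 to 57497 in wildtype and 25258 to 27500.2 in the knockouts. The megakaryocyte list had 7 of 7 called higher, with 17910.1 to 18884 in wildtype and 26581 to 34051 in the knockouts. Granulocyte genes were called higher in 4 of 10, with 5770.3 to 6420 against 7314 to 9220, and stem and progenitor genes in 5 of 8, with 2655 to 2759 against 3544 to 3998. Macrophage genes were called lower in 7 of 12, with 6357 to 7397 against 5067 to 5953, and hepatoblast genes in 3 of 12, with 56806 to 68916 against 54614 to 58118. Lymphoid genes were called higher in 3 of 9 and lower in 0, with 4 of the 9 changes negative. Their sums were 847 to 907 against 1015 to 1090.4. Endothelial genes were called higher in 1 of 8, with 3961 to 5593 against 4182 to 4987. Of 12 interferon response genes 2 were called higher and 1 lower, with 1877 to 2262 against 1613 to 2492. The sums of this list overlapped between the groups, as did those of the hepatoblast and endothelial lists. The part of these cell types in the changes of the proteasome genes and of the companion lists was not tested. Intensities have no true zero, so no marker could be read as absent.

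Some genes had extra probe sets. Psma3, Psma5, Psmb3, Psmc1 and Psmd2 had more than 1 probe set of their own, which may include copies of the gene elsewhere. None of these sets was called in the direction opposite to another set of its gene. The sets of Psma3 differed between groups by 0.03, 0.11 and 0.05, those of Psma5 by 0.26 and 0.33, those of Psmb3 by 0.11 and 0.09, those of Psmc1 by 0.01 and 0.06, and those of Psmd2 by 0.01 and 0.07.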

How the data were processed

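The authors deposited probe set intensities, computed, per the submitters' processing notes, by RMA in Affymetrix Power Tools (version 1.8.6). Which genome build was used is not given in the sources used here. This method gives all arrays like distributions and hides changes in total RNA. Values ran from 5.6 to 27245, a linear scale, and log2 was taken. For each gene the single-gene probe set of highest mean over all arrays was kept, as the platform annotation names them; of 34760 sets 21640 had 1 gene, and listed genes without such a set were not analysed here. The fit used limma (version 3.58.1, R 4.3.3): lmFit and eBayes over all 19937 genes, group alone in the design, 2-sided, with Benjamini-Hochberg adjustment. Differences within pairs had an exact permutation test. The fit was tested on simulated data of the same 19937 genes, with 50 genes changed at each fold. It called 8% of those changed 1.25-fold, 56% at 1.5-fold, 96% at 2-fold and 100% at 4-fold, so most changes of 1.25-fold were missed. Fewer genes were changed there than were called in the data, so these shares need not hold here.

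The members and lists were chosen with earlier results of these data known. Genes named with values per array were the called genes of each role or companion list, up to 4 by size, or else the 2 of smallest p, and Klf1; Psma8, Psme2 and Psme4 were added after their values were seen. No source says that embryos came from separate litters, so the spread behind each p-value is that between these embryos, and the number of arrays limits the precision. Alternatives changed the normalization (quantile), the centring (75th percentile, or median deviation of 14 housekeeping genes), the filter on dim genes, the use of probe sets, the variance model, array weights, a replicate block, the threshold and the arrays included.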

Additional observations from a re-analysis of the deposited data

Results flagged for a closer look

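Psma5 has a second, dimmer probe set that the comparison of genes did not use, and in a fit over every probe set it was higher in the knockouts by 0.33 ± 0.09 (limma adjusted p = 0.0301). It read 9.73, 9.56 and 9.42 in wildtype and 9.87, 9.96 and 9.89 in the knockouts, with all knockout arrays above all wildtype arrays. The brighter set of Psma5 differed by 0.26 ± 0.12 and was not called (limma adjusted p = 0.167 in that fit).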

How the results depend on the processing

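The rises of Psme1 and Psmf1 were called under all 16 alternatives, with adjusted p of at most 0.00142 and 0.0154. The fall of Psme3 was called under all but the 0.01 threshold and 5 of the 6 fits with 1 array left out. Of the 46 genes 22 changed sign under some alternative, 14 of them with centring on the 75th percentile; none of these was called on either side of the change, and their reported changes were at most 0.099 in size. That centring put the median of the 46 genes at -0.01 with the median of all genes at -0.09, and made 61.0% of all calls lower in place of 43.2%.

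The count of proteasome genes called higher was 2, and 4 with quantile normalization, with dim genes under the median left out, with the trended and robust model and with array weights; it ran from 2 to 5 with 1 array left out. The count called lower was 1, 0 at the 0.01 threshold, and 0 to 1 with 1 array left out, also within the activators and inhibitor. In the alpha ring the same 4 alternatives called 1 gene higher in place of 0, and in the constitutive beta ring these and the filter at the 25th percentile called 1; with 1 array left out these rings and the cap ATPases had 0 to 1. The median of the specialised beta subunits was -0.032 with centring on the 75th percentile, and the sign of Psmb8 less Psmb5 turned without wildtype replicate 1; its shift ran from -0.0047 to 0.12 over the arrays left out.

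In the companion lists, the 1 chaperone gene and the 1 delivery gene called higher became 0 with either centring, with array weights, with the replicate block and at the 0.01 threshold, and 0 to 1 with 1 array left out. Among associated factors quantile normalization, both dim filters and the trended model called 1 higher (Ecpas); 2 were lower with centring on the 75th percentile, the median filter and the trended model, and 0 with the block, at the 0.01 threshold or with any 1 array left out. The calls of transcriptional control were 4 with housekeeping centring, where Mafg was lost (adjusted p = 0.0509), 3 at the 0.01 threshold and 3 to 5 with 1 array left out. In the MHC class I list 1 was called lower with centring on the 75th percentile and with the trended model, and 1 higher with both dim filters, the mean of probe sets and array weights. Medians moved to 0.13 (chaperones), -0.18 (transcriptional control) and -0.13 (MHC class I) with dim genes under the median left out, and to -0.16 (transcriptional control), 0.045 (delivery) and -0.13 (MHC class I) with centring on the 75th percentile; with 1 array left out they ran from -0.032 to 0.10 for chaperones, 0.056 to 0.14 for delivery and -0.13 to 0.0001 for MHC class I. The cause of these shifts was not tested.

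Replicate numbers were not treated as pairs in the main fit. The deviations of same-numbered arrays correlated at -0.156, -0.224 and 0.183, which cannot settle whether the embryos were paired. With the replicate block 3498 genes were called in place of 3809, and the calls of Mafg (adjusted p = 0.0567), Psmg2 (0.0625), Ube3c (0.0623) and Rad23b (0.0564) were lost, while Psme3 had an adjusted p of 0.0495. Over all genes 2409 and 2414 were called without knockout replicates 2 and 3, and 1995 at the 0.01 threshold.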
